A study of Mus musculus with 21 samples.

Results

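Primordial germ cell-like cells (PGCLC) that lacked both Otx2 and Blimp1 were compared with PGCLC that lacked Otx2 alone. The comparison used 6 of the 21 arrays of the study, chosen by their labels: 3 arrays of Otx2/Blimp1-null PGCLC and 3 of Otx2-null PGCLC. RNA had been hybridised to single-colour Illumina bead arrays, on which each probe gives 1 brightness value per sample. The study placed 7 groups of 3 arrays side by side, and its design asks whether sorted cells of the mutant lines resemble germ cells.

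Both groups carried the Otx2 alleles GFP and lacZ in place of functional Otx2 (Otx2-/- in the labels), so that the loss of Otx2 was shared and the Blimp1-/- genotype was the labelled difference. Mouse embryonic stem cells were first turned for 2 days into epiblast-like cells (EpiLC) with activin and FGF in medium with 1% serum replacement. EpiLC were then dissociated and reaggregated in medium with 15% serum replacement and BMP4, BMP8a, LIF, SCF and EGF. At day 6 the cells positive for SSEA1 and CD61 were sorted and their RNA was extracted. The Otx2/Blimp1-null and Otx2-null EpiLC, 3 arrays each, gave the same genotype comparison before induction. Each genotype was 1 cell line, so that the genotype cannot be told apart from other differences between the lines. Replicates are numbered in the labels without a statement that they were separate cultures, and the p-values therefore measure the spread between these samples.

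Blimp1, the protein of the gene Prdm1, is a zinc finger repressor with a PR domain that is needed for the specification of mouse germ cells. It acts with Prdm14 and Tfap2c, holds back somatic genes in germ cell precursors and precedes the return of part of the pluripotency programme and the loss of DNA methylation. In B cells and T cells the same protein represses genes of proliferation and of earlier cell identity. Otx2, a homeodomain protein, regulates genes of the epiblast and the anterior brain, and its level declines as cells enter the germ line.

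Blimp1-type repressors bind sites with the core AGNGAAAG, and this sequence was looked up on both strands in the 250 bases before each RefSeq gene start (build GRCm38.p6). Of the tested genes with a promoter in the table, 8.20% held the core. It was present for 7.88% of the genes that were higher in Otx2/Blimp1-null PGCLC, 7.83% of those that were lower and 8.55% of those that did not pass the test. The promoters of a pair of genes described below are shown because both genes moved at day 6 and hold the core, one gene having risen and the other having fallen. The capitals mark the core or its reverse complement, and the run ends 1 base before the annotated start. A match is a description of the letters and not a measured binding site. The Uhrf1 promoter lies at chr17:56303087-56303336 on the plus strand and that of Otx2 at chr14:48667645-48667894 on the minus strand.
Uhrf1: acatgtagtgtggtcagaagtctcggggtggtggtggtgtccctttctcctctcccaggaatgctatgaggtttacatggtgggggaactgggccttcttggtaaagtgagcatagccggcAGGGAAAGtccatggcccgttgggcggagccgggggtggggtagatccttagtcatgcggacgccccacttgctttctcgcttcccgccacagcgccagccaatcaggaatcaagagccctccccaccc
Otx2: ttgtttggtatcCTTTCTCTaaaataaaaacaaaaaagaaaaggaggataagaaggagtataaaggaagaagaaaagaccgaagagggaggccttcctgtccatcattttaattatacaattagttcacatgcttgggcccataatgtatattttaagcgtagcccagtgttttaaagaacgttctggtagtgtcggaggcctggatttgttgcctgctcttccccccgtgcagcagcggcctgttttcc

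A probe was called detected where its deposited detection p was under 0.05. Detected probes numbered 15961 to 16507 on the Otx2/Blimp1-null PGCLC arrays and 17527 to 18085 on the Otx2-null PGCLC arrays. Principal component 1 carried 63.9% of the variance among the 21 arrays, and on it the Otx2/Blimp1-null PGCLC lay from -2.71 to 3.65. Otx2-null PGCLC lay from 55.5 to 58.7 and Otx2-null EpiLC from -73.9 to -66.6, so that the double-null cells stood between them. On component 2 the Otx2/Blimp1-null PGCLC lay from 56.6 to 61.7 and the Otx2-null PGCLC from 7.10 to 13.1. The number of detected probes thus moved with the genotype at day 6. In EpiLC the order was the other way, with 14696 to 15100 in Otx2/Blimp1-null EpiLC and 14088 to 14430 in Otx2-null EpiLC. The part of this number in the results below was not tested.

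Levels below are normalized log2 probe signals, with the standard deviation over 3 arrays after ±. Differences are log2 differences, Otx2/Blimp1-null minus Otx2-null PGCLC, with the standard error after ±, and adjusted p-values come from limma with Benjamini-Hochberg adjustment over 11649 genes. A gene is called higher or lower where its adjusted p was under 0.05. Levels of different genes are not comparable, because each has its own probe.

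The targeted gene was looked at first. Neither of the 2 Prdm1 probes was detected on any of the 6 arrays, so that the loss of Blimp1 RNA could not be measured. The brighter of them read 4.76 ± 0.13 without Otx2 alone and 4.52 ± 0.12 without both genes. The Otx2 probe was detected on every array of both groups, which are labelled as lacking the gene, and its position relative to the altered part of the gene is not known. Its signal was 9.37, 9.75 and 9.76 on the Otx2-null arrays and 10.50, 10.45 and 10.22 on the Otx2/Blimp1-null arrays. The groups did not overlap, and the difference was 0.77 ± 0.15 (limma, adjusted p = 0.000236). Of genes linked to the sorting antigens, Fut4, which encodes a fucosyltransferase that can make SSEA1, was detected on 0 of the 6 arrays. Itgb3, which encodes CD61, was detected on 1 array of each group. The SSEA1 antigen itself was not measured by the arrays.

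The difference between the genotypes was broad. Of 11649 genes, 5623 (48.3%) passed the test, 2332 (20.0%) of them higher and 3291 (28.3%) lower in the Otx2/Blimp1-null PGCLC. Day-6 counts of called members in the lists and families below are to be read against these 20.0% and 28.3%. At least 2-fold differences numbered 992 higher (8.52%) and 1070 lower (9.19%) genes. The median difference over all genes was -0.07, and the median standard error was 0.18. For 1394 of the higher and 2150 of the lower genes, the mean of the Otx2/Blimp1-null PGCLC lay between the means of Otx2-null EpiLC and Otx2-null PGCLC. The share over all genes was not computed. Otx2-null PGCLC served both to choose these genes and as an end of the range, so that the counts are not a test. For 405 of the 2332 higher genes every Otx2/Blimp1-null PGCLC array lay above all 18 other arrays of the study. Over all tested genes this held for 448 (3.85%). For 302 of the 3291 lower genes every such array lay below the other 18, and over all tested genes for 348 (2.99%). The called genes had been chosen against 3 of those 18 arrays, so that these counts are not a test.

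Early germ cell genes were more often lower than higher when Blimp1 was also missing. Of 25 measured members of the list, 13 were lower, 1 was higher and 11 did not pass the test, with a median difference of -0.48. Of all genes, 28.3% were lower and 20.0% higher. Tfap2c and Prdm14, which act with Blimp1 in germ cell specification, both fell, as did Nanos3.

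Tfap2c, which encodes the AP-2 gamma transcription factor of early germ cells and trophoblast, read 12.93, 12.44 and 12.86 in Otx2-null PGCLC. In Otx2/Blimp1-null PGCLC its signal was 10.58, 10.89 and 10.91, below every Otx2-null array. The fall of 3.86-fold (-1.95 ± 0.16, adjusted p = 4.58e-09, limma) compares with a level of 7.35 ± 0.16 in Otx2-null EpiLC and 13.52 ± 0.17 in WT PGCLC. Prdm14, a PR domain regulator of germ cell and pluripotency genes, read 7.69, 7.41 and 7.62 against 6.93, 6.91 and 7.19. The groups were separate but close, and the difference was -0.57 ± 0.17 (adjusted p = 0.00723). Nanos3, an RNA-binding protein that keeps early germ cells alive, read 7.18, 6.34 and 6.58 against 5.74, 6.26 and 5.93. Here the gap between the groups was smaller than the spread within the Otx2-null arrays. Its difference of -0.72 ± 0.20 (adjusted p = 0.00406) did not pass in the authors' normalized values (-0.39) or without Otx2-null PGCLC replicate 1 (-0.48).

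Dppa3, also called Stella, protects methylated DNA in the early embryo and marks newly specified germ cells. Its signal was 10.11, 9.42 and 9.62 in Otx2-null PGCLC and 7.68, 8.21 and 9.20 in Otx2/Blimp1-null PGCLC. The arrays did not overlap, although the double-null arrays spread over more than a log2 unit, and the difference was -1.35 ± 0.25 (adjusted p = 8.24e-05). Dnd1, which binds RNA with Nanos proteins, read 10.35, 10.49 and 10.52 against 8.95, 8.81 and 8.53, a difference of -1.69 ± 0.17 (adjusted p = 5.05e-08). The gap between the groups was several times the spread within either. Kit, the receptor for SCF, read 11.09, 11.35 and 11.03 against 10.01, 10.08 and 10.24, and its difference was -1.05 ± 0.18 (adjusted p = 5.96e-05).

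Surface proteins and reproductive homeobox genes were among the other members called lower. Ifitm3, an interferon-induced membrane protein known as Fragilis, read 13.55, 13.14 and 13.41 against 12.46, 12.39 and 12.45 (-0.93 ± 0.15, adjusted p = 1.73e-05). Alpl, the tissue non-specific alkaline phosphatase used to stain germ cells, read 11.05, 10.34 and 10.51 against 8.98, 9.60 and 9.62 (-1.23 ± 0.20, adjusted p = 2.03e-05). In both genes each double-null array lay below each Otx2-null array. Rhox9, a homeobox gene of the X chromosome, read 11.64, 11.12 and 11.35 against 7.84, 8.36 and 9.20. It fell 7.49-fold (-2.90 ± 0.28, adjusted p = 3.03e-08), and its relative Rhox6 differed by -1.64. The other members that fell were Tdrd12 (-1.05), Tdrd5 (-0.89) and Ifitm1 (-0.48). A further probe for Ifitm1 passed the test the opposite way (0.44).

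Members that did not pass by their brightest probe included Pou5f1 (0.17), described below, the chemokine receptor Cxcr4 (0.36), Lifr (-0.09), Elovl4 (0.31) and Tcl1 (-0.27). A further probe of Mcam passed as higher (0.58), while another did not pass (0.15). By brightest probes Dazl, which regulates translation in germ cells, was the 1 early member called higher. Its signal was 8.12, 8.62 and 8.74 in Otx2-null PGCLC and 9.69, 9.53 and 9.57 in Otx2/Blimp1-null PGCLC. The groups did not overlap and the difference was 1.11 ± 0.20 (adjusted p = 9.99e-05), with WT PGCLC at 7.76 ± 0.38. In bulk samples, fewer cells of a type and less RNA per cell cannot be told apart.

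**Figure D1:**
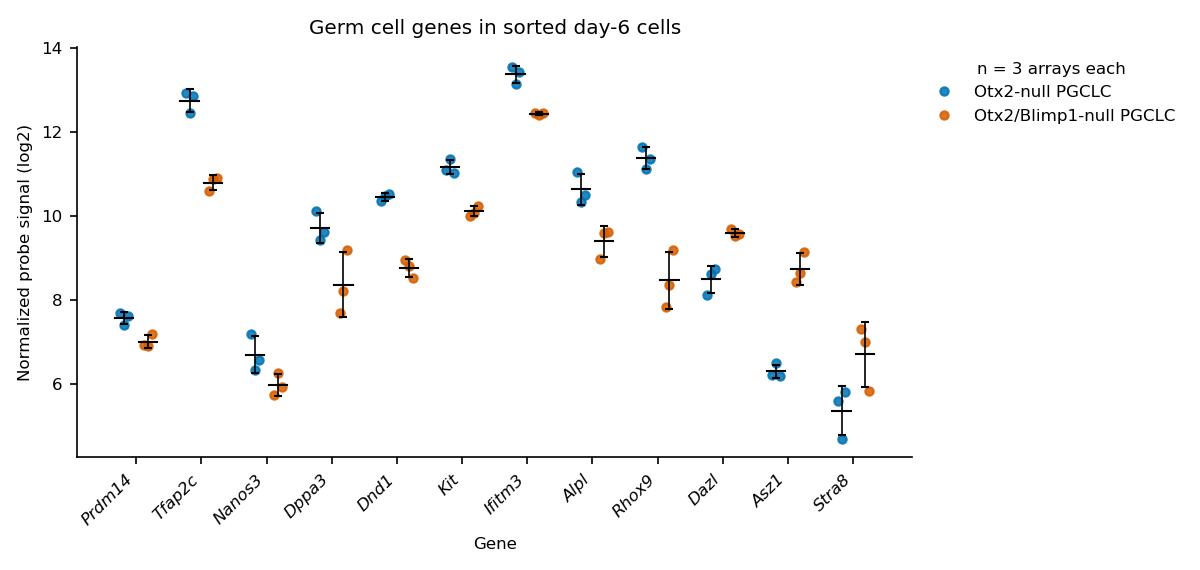
Normalized log2 probe signal of 12 germ cell genes on the 6 day-6 arrays, with points for arrays, horizontal lines for means and bars for the standard deviation (n = 3 arrays per group). Points of Tfap2c, Dnd1 and Rhox9 lie lower in Otx2/Blimp1-null PGCLC, and those of Dazl and Asz1 lie higher.

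The summed normalized signal of the 25 genes was 58945 to 70568 per Otx2-null PGCLC array and 42443 to 44770 per Otx2/Blimp1-null PGCLC array. The sums did not overlap. WT PGCLC levels are given for orientation and were not tested against these groups: Dppa3 was 11.36 ± 0.07, Dnd1 11.10 ± 0.10, Kit 12.24 ± 0.30 and Rhox9 11.40 ± 0.33 there.

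Of 18 measured genes of later germ cells and of the piRNA pathway, 3 were higher and 2 lower, and the median difference was 0.09. Of all genes, 20.0% were higher and 28.3% lower. The summed signal of the list was 1416 to 1514 per Otx2-null PGCLC array and 1898 to 1987 per Otx2/Blimp1-null PGCLC array, without overlap. Most of that rise came from Asz1 alone. Asz1, a mitochondrial protein of the piRNA pathway, read 6.21, 6.49 and 6.21 in Otx2-null PGCLC and 8.42, 8.65 and 9.15 in Otx2/Blimp1-null PGCLC. It rose 5.41-fold (2.44 ± 0.24, adjusted p = 3.84e-08), to a level above the 5.47 ± 0.33 of WT PGCLC. Rnf17, a Tudor domain protein of male germ cells, differed by 1.14 ± 0.19 (adjusted p = 2.89e-05), though a dim further probe did not pass (0.17). Stra8, a regulator of entry into meiosis, read 5.60, 4.71 and 5.81 against 7.31, 6.99 and 5.84. The lowest double-null array stood just above the highest Otx2-null array, and the difference was 1.34 ± 0.27 (adjusted p = 0.000256). Tex14, which joins germ cells by intercellular bridges, differed by -1.60 ± 0.26 (adjusted p = 2.44e-05). Ddx4, the Vasa helicase of later germ cells, was detected on no double-null array and did not pass (-0.15).

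Of 22 measured naive pluripotency genes, 10 were lower, 0 were higher and 12 did not pass by their brightest probes, with a median of -0.25. The shares over all genes were 28.3% lower and 20.0% higher. Further probes passed as higher for Jam2 (0.97, 1.22 and 0.51) and Manba (0.70), while others of Jam2 did not pass (0.25 and -0.19). Esrrb, an orphan nuclear receptor of naive stem cells, read 13.95, 13.95 and 14.02 in Otx2-null PGCLC and 12.15, 12.38 and 12.54 in Otx2/Blimp1-null PGCLC (-1.62 ± 0.15, adjusted p = 2.06e-08). Its dim further probe did not pass (-0.07). Tfcp2l1, a LIF-responsive naive factor, read 12.86, 12.83 and 12.68 against 11.14, 11.27 and 11.38 (-1.53 ± 0.15, adjusted p = 3.96e-08). In both genes the groups lay far apart relative to their spread.

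Klf5 and Klf2 are Krüppel-like factors of the naive state. Klf5 read 12.80, 13.11 and 12.99 against 11.74, 11.82 and 11.85 (-1.16 ± 0.18, adjusted p = 9.84e-06), and Klf2 read 12.11, 11.94 and 11.96 against 11.04, 11.06 and 11.13 (-0.93 ± 0.15, adjusted p = 2.30e-05). Neither gene's groups overlapped. Nr5a2, a nuclear receptor that sustains Pou5f1 expression, differed by -0.99, Sall4 by -1.38, Stat3 by -0.81, Pecam1 by -0.88 and Gbx2 by -0.84. Further probes did not pass for Sall4 (-0.01), Stat3 (-0.36 and -0.19) or Pecam1 (0.01 and -0.10), and Gbx2 did not pass in the authors' normalized values (-1.03).

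By contrast, Nanog, the homeodomain factor shared by naive and germ cells, read 11.93, 12.04 and 12.51 in Otx2-null PGCLC and 12.49, 12.32 and 12.50 in Otx2/Blimp1-null PGCLC. The ranges overlapped and the difference of 0.28 ± 0.19 did not pass (limma, adjusted p = 0.261). Zfp42, also known as Rex1, differed by 0.28 ± 0.17 (adjusted p = 0.189) and Klf4 by 0.18 ± 0.19 (adjusted p = 0.456). Tbx3 (0.01), Dppa5a (-0.06), Fgf4 (0.17) and Nr0b1 (0.26) likewise did not pass. A p that misses the threshold does not show that these levels were equal.

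Among general pluripotency genes, 10 of 17 measured members were lower and 1 was higher, against 28.3% and 20.0% of all genes. The median was -0.84. Pou5f1, which encodes Oct4, read 12.65, 12.67 and 12.57 against 12.88, 12.74 and 12.78. It did not pass (0.17 ± 0.14, adjusted p = 0.356), although its arrays were separate, and a further probe passed (0.37, adjusted p = 0.0430). Sox2, the partner of Oct4, read 9.93, 9.81 and 10.04 against 8.82, 8.49 and 8.48 (-1.33 ± 0.21, adjusted p = 1.70e-05), while its further probe did not pass (0.15). Esrp1, an epithelial splicing regulator, read 11.29, 11.02 and 11.13 against 7.47, 7.73 and 8.76. It fell 8.96-fold (-3.16 ± 0.22, adjusted p = 5.23e-10), from a level equal to the 11.15 ± 0.16 of WT PGCLC.

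Other members that fell were the cell cycle factor Mybl2 (-1.44), the RNA-binding L1td1 (-1.34), Utf1 (-0.95), Cdh1 (-0.85), Zscan10 (-0.84) and the co-repressor Trim28 (-1.18). Dppa4 was called lower (-0.42) by its brightest probe and higher by 2 further probes (0.53 and 0.54), so that its direction is not settled. Tdgf1, the Nodal co-receptor Cripto, was the member called higher. It read 6.54, 6.98 and 7.39 in Otx2-null PGCLC and 9.26, 9.13 and 8.64 in Otx2/Blimp1-null PGCLC, with no overlap. The difference was 2.04 ± 0.27 (adjusted p = 1.62e-06) and the level in Otx2-null EpiLC was 8.54 ± 0.61.

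**Figure D2:**
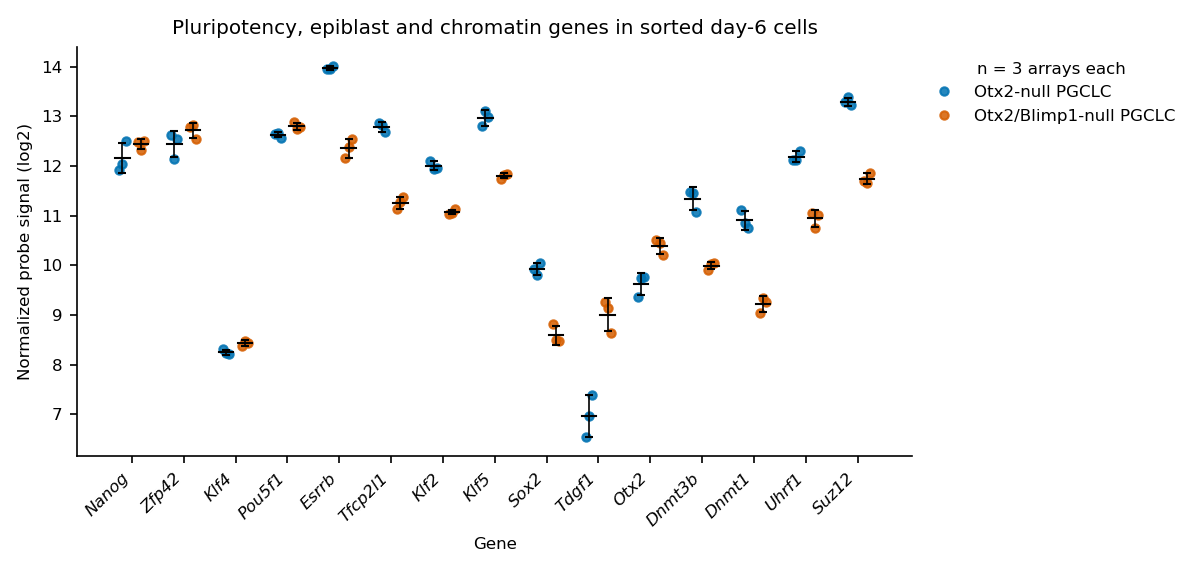
Normalized log2 probe signal of 15 pluripotency, epiblast and chromatin genes on the 6 day-6 arrays, with points for arrays, lines for means and bars for the standard deviation (n = 3 arrays per group). Esrrb, Tfcp2l1, Sox2, Dnmt1 and Suz12 lie lower and Tdgf1 lies higher in Otx2/Blimp1-null PGCLC, while Nanog, Zfp42, Klf4 and the plotted probe of Pou5f1 did not pass the test.

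Genes of the formative and primed epiblast were lower for 10 of 25 measured members and higher for 2, against 28.3% and 20.0% of all genes. The median was -0.30. Of the signature factors of EpiLC, Fgf5 was detected on no double-null array and did not pass (-0.37 ± 0.18, adjusted p = 0.0978). Pou3f1, also called Oct6, read 5.65, 6.53 and 5.39 against 5.00, 5.23 and 5.36 (-0.66 ± 0.24, adjusted p = 0.0233). That call was lost in the authors' normalized values (-0.04), without Otx2-null PGCLC replicate 2 (-0.33), without Otx2/Blimp1-null PGCLC replicate 1 (-0.57) and with an offset of 50 (-0.40). Otx2-null EpiLC had 9.54 ± 0.09, far above both groups.

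The members that fell most were Cldn6 (-1.73), a tight junction protein of the early embryo, Dnmt3b (-1.35), Dnmt3l (-1.25), the Nodal antagonist Lefty2 (-1.02) and Etv5 (-0.96), a target of FGF signals. Besides Otx2, the carbonyl reductase Cbr3 was called higher (0.66 ± 0.21, adjusted p = 0.0138), a call that was lost when Otx2-null PGCLC replicate 1 (0.60) or 3 (0.57) or Otx2/Blimp1-null PGCLC replicate 1 (0.53) was left out. In the authors' normalized values the median of the list was -0.01, with 6 members lower and 2 higher. With genes that were not detected in one group at their bound, the median was 0.

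Of 19 measured DNA methylation and chromatin genes, 12 were lower and 1 was higher, against 28.3% and 20.0% of all genes. The median was -0.67. The summed signal of the list was 34215 to 34789 per Otx2-null array and 17535 to 17908 per double-null array, without overlap. Dnmt1, the maintenance DNA methyltransferase, read 11.11, 10.85 and 10.75 against 9.05, 9.34 and 9.27 (-1.68 ± 0.19, adjusted p = 2.36e-07). Its cofactor Uhrf1 read 12.12, 12.13 and 12.31 against 11.06, 10.76 and 11.01 (-1.24 ± 0.19, adjusted p = 9.54e-06). Both had stood above their Otx2-null EpiLC levels of 8.67 ± 0.36 and 10.75 ± 0.20 in Otx2-null PGCLC.

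Dnmt3b, a de novo methyltransferase, read 11.48, 11.46 and 11.07 against 9.91, 10.03 and 10.04 (-1.35 ± 0.17, adjusted p = 1.17e-06). Tet1, which oxidises methylated cytosine, read 10.76, 10.57 and 10.64 against 8.61, 8.84 and 9.04 (-1.83 ± 0.26, adjusted p = 3.74e-06). Suz12, a subunit of Polycomb repressive complex 2, read 13.28, 13.38 and 13.22 against 11.70, 11.66 and 11.87 (-1.55 ± 0.15, adjusted p = 2.14e-08). No pair of groups overlapped. Ezh2 (-1.34), Ehmt1 (-1.89), Ehmt2 (-0.67), Setdb1 (-0.62) and Kdm6b (-0.87) also fell, while Eed (0.38), Jarid2 (-0.06) and Kdm3a (0.33) did not pass. Of the further probes of Kdm3a, 1 passed (0.62, adjusted p = 0.0196). Kdm4c was called higher (0.52), but not in the authors' normalized values, without Otx2-null PGCLC replicate 1 (0.29) or without Otx2/Blimp1-null PGCLC replicate 1 (0.34). Further probes did not pass for Suz12 (-0.01), Dnmt3b (-0.39), Ezh2 (-0.04 and -0.33), Ehmt2 (0.13) or Kdm6b (0.27), all but that of Dnmt3b dim. Other further probes of Ehmt2 (-0.55) and Kdm6b (-0.79) passed the same way. Dnmt3a was not tested.

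The response genes of the signals in the medium were examined list by list. For BMP, 3 of 11 measured targets were higher and 1 was lower, against 20.0% and 28.3% of all genes, with a median of 0.03. Id1, an inhibitor of helix-loop-helix factors and a direct BMP target, read 7.84, 7.82 and 7.72 against 9.08, 9.12 and 9.60. It rose 2.78-fold (1.48 ± 0.24, adjusted p = 2.80e-05), towards the 9.62 ± 0.53 of WT PGCLC. Bmp4 itself was higher (0.70 ± 0.21, adjusted p = 0.00866), and Id2 was higher by 1.10 ± 0.19 (adjusted p = 5.01e-05) but not in the authors' normalized values (0.03). Id3 did not pass (0.62, adjusted p = 0.0534). Gata2, a zinc finger factor of trophoblast and blood, went the other way (-2.31 ± 0.17, adjusted p = 1.08e-09).

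Targets of LIF and STAT3 were lower for 7 of 18 measured members and higher for 0, with a median of -0.28. Of all genes, 28.3% were lower and 20.0% higher. Socs2, a feedback inhibitor of cytokine receptors, read 12.31, 11.84 and 12.20 against 10.20, 10.48 and 10.36 (-1.77 ± 0.21, adjusted p = 5.01e-07). Gab1, an adaptor of receptor kinases, differed by -1.35, Stat3 by -0.81 and Jak3 by -1.55, the last not passing in the authors' normalized values (-0.95). Socs3 (0.42), Lifr (-0.09), Il6st (-0.24) and Klf4 (0.18) did not pass. Of FGF and ERK targets, 6 of 16 were lower and 1 was higher (median -0.18), against the same 28.3% and 20.0%. Dusp4, a phosphatase of ERK, read 7.98, 7.44 and 7.71 against 4.89, 5.53 and 5.80 (-2.30 ± 0.18, adjusted p = 3.59e-09), and of its 3 further probes 2 passed the same way and a dim one did not pass (-0.15). Etv5 (-0.96), Ccnd1 (-0.67) and Dusp5 (-0.61) were lower, Dusp5 not in the authors' normalized values (-0.18), whereas Dusp6 (-0.19), Spry4 (0.09) and Etv4 (0.07) did not pass.

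Of 14 measured members of the Nodal and activin pathway, 10 were lower and 2 higher, with a median of -0.91. Among the receptors and effectors, Acvr2b read 11.72, 11.84 and 11.47 against 9.94, 9.85 and 10.10 (-1.72 ± 0.17, adjusted p = 5.67e-08). The intracellular effector Smad3 read 9.20, 9.01 and 9.37 against 7.38, 7.52 and 7.77 (-1.64 ± 0.19, adjusted p = 3.14e-07). For both, each double-null array lay more than a log2 unit below each Otx2-null array. The convertases Furin (-1.36) and Pcsk6 (-0.98), the cofactor Foxh1 (-1.10), the receptor Acvr1b (-0.83) and the antagonists Lefty1 (-1.20) and Lefty2 (-1.02) fell as well. Nodal itself did not pass by its brightest probe (0.27), while a further probe passed as higher (0.86, adjusted p = 0.000118). The members called higher were its co-receptor Tdgf1 (2.04) and the ligand Gdf3 (0.53).

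Of Wnt ligands and targets, 8 of 18 were lower and 3 higher (median -0.35). Wnt7b, a ligand also expressed in trophoblast, read 9.73, 9.17 and 9.49 against 6.00, 5.49 and 6.81. It fell 10.3-fold (-3.36 ± 0.23, adjusted p = 5.23e-10), towards its Otx2-null EpiLC level of 4.53 ± 0.08. Porcn, the enzyme that attaches lipid to Wnt ligands, read 10.78, 9.77 and 10.28 against 8.28, 8.11 and 8.38 (-2.02 ± 0.28, adjusted p = 2.47e-06). Tcf7l1 (-1.23), Notum (-1.26), Wnt3a (at least 1.51-fold), Fzd5 (-0.74) and Fzd7 (-0.76) were lower. A further probe of Notum passed the opposite way (0.50) and another the same way (-0.49), and that of Fzd5 did not pass (0.04). Wls, which carries Wnt ligands to the surface, was called higher (1.15) but not in the authors' normalized values (0.18), and of its 3 further probes 1 passed the same way (0.60). The targets Axin2 (-0.46) and Sp5 (-0.19) did not pass.

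Epithelial junction and keratin genes were lower for 15 of 24 measured members and higher for 0 by their brightest probes, with a median of -0.74. Spint1 did not pass by its brightest probe (-0.33) and was higher by a further one (0.67). Beside Esrp1, the list included Rab25, a vesicle GTPase of epithelia, which read 10.04, 9.49 and 9.89 against 7.99, 8.21 and 8.67 (-1.51 ± 0.19, adjusted p = 7.87e-07). Cldn3 (-1.37), Esrp2 (-1.12), Tjp3 (-1.05), the desmosomal Pkp2 (-1.02) and Dsg2 (-0.98), and the protease St14 (-0.94) fell too. Keratins split, with Krt7 lower (-0.78) and Krt8 (0.34), Krt18 (0.13) and Krt19 (-0.07) not passing. In the authors' normalized values 9 members were lower and the median was -0.13, and Cldn3 did not pass there (-0.84).

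**Figure D3:**
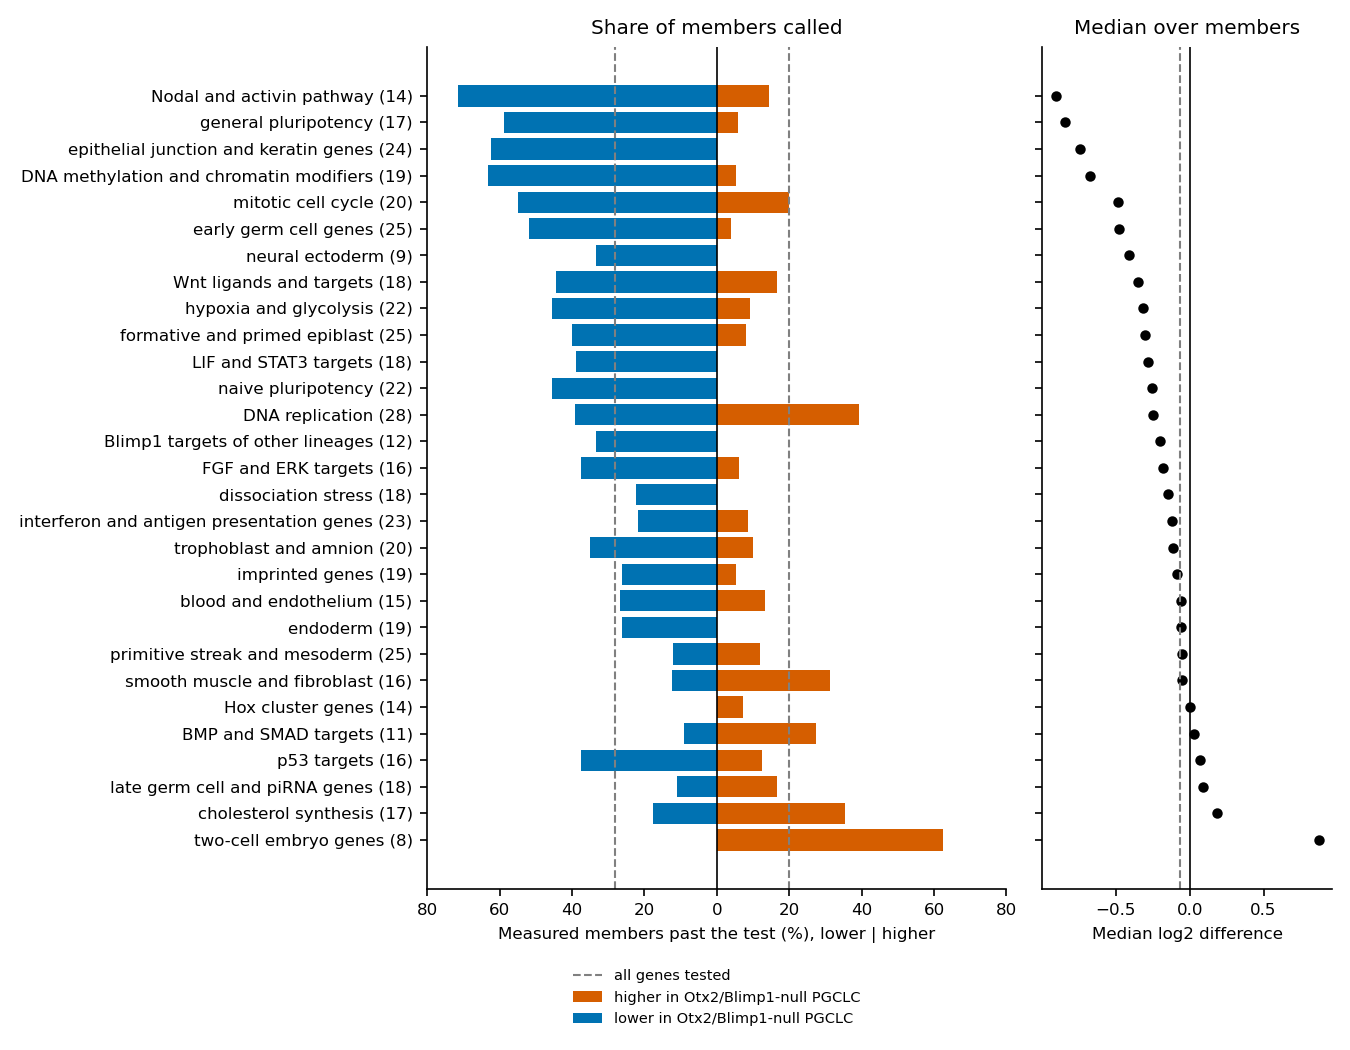
Share of measured members called lower (left of 0) and higher (right of 0) in Otx2/Blimp1-null PGCLC for each of 29 gene lists, in percent, with the number of measured members in brackets and the median log2 difference in the right panel. Dashed lines mark all genes tested (28.3% lower, 20.0% higher, median -0.07). In the Nodal, general pluripotency, epithelial and chromatin lists more members were lower than higher, and of the 2-cell embryo genes 5 of 8 were higher.

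Markers of other cell types that the aggregates or the sort could hold were read in the same way. Primitive streak and mesoderm genes were higher for 3 and lower for 3 of 25 measured members, against 20.0% and 28.3% of all genes. The summed signal of the list was 2461 to 2547 in Otx2-null and 2367 to 2765 in Otx2/Blimp1-null PGCLC, with overlap. The members called higher were the organiser gene Gsc (0.92 ± 0.13, adjusted p = 4.80e-06), Bmp4 (0.70) and Cdx1 (0.68), the last neither in the authors' normalized values (0.02) nor without Otx2/Blimp1-null PGCLC replicate 1 (0.48). Those called lower were Wnt3a, Meis1 (-0.74) and Meis2 (-0.60), Meis1 not in the authors' normalized values (-0.20). Further probes of Meis2 did not pass (0.37 and -0.37). Eomes (-0.14), Gata6 (-0.06) and Tbx6 (0.01) did not pass, although a dim further probe of Eomes did (-0.62). Of 14 measured Hox genes, 1 was higher, Hoxb7 (0.67), and it did not pass in the authors' normalized values (0.02).

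Endoderm genes were lower for 5 of 19 members and higher for 0 by their brightest probes, where 28.3% of all genes were lower and 20.0% higher. The lower members were basement membrane and secreted products such as Lamc1 (-1.21), Lama1 (-0.63), Col4a1 (-0.67) and Apoe (-0.46), and Cldn6. Col4a1 did not pass in the authors' normalized values (-0.45), without Otx2-null PGCLC replicate 2 (-0.46) or without Otx2/Blimp1-null PGCLC replicate 1 (-0.48). Lama1 was lost without Otx2-null PGCLC replicate 2 (-0.39) and Apoe without Otx2-null PGCLC replicate 3 (-0.43). The regulators Gata4 (0.28), Gata6 (-0.06) and Sox7 (0.14) did not pass. Sparc did not pass by its brightest probe (0.45), while a further probe was higher (0.97) and a dim one did not pass (0.15). Neural ectoderm genes were lower for 3 of 9 members, where 28.3% of all genes were lower, and higher for 0 by their brightest probes. The falls were led by Gli3, an effector of hedgehog signals (-1.62 ± 0.18, adjusted p = 1.52e-07). A further probe of Ncam1 passed as higher (0.49), another did not pass (0.11), and a further probe of Sox21 passed as lower (-0.78). The summed signal of the list fell from 1848 to 2251 per Otx2-null array to 1182 to 1334 per double-null array.

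Of 20 measured trophoblast and amnion genes, 7 were lower and 2 higher, against 28.3% and 20.0% of all genes. The median was -0.11. Gata2 read 7.69, 8.00 and 7.70 against 5.14, 5.80 and 5.52, and Tead4 (-0.82), Krt7 and Ets2 (-0.65) were also lower, as were Tfap2c and Wnt7b above. Cdx2 (-0.19), Eomes and Gata3 (-0.14) did not pass. The sum was 8056 to 10358 against 2978 to 3407. Most of it in Otx2-null PGCLC was the signal of Tfap2c, which is also a germ cell gene. The fall of the sum is therefore not a fall of the list as a whole. Blood and endothelial genes were lower for 4 of 15 members and higher for 2, against 28.3% and 20.0% of all genes. Etv2, an early regulator of blood and vessel precursors, read 6.63, 7.50 and 6.85 against 8.98, 9.14 and 9.18 (2.10 ± 0.22, adjusted p = 6.29e-08). Its level in Otx2-null EpiLC was 9.91 ± 0.26. The globins Hbb-y (-0.00), Hba-x (-0.04) and Hbb-bh1 (-0.09) and Cdh5 (-0.06) did not pass.

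Smooth muscle and fibroblast genes were higher for 5 of 16 members and lower for 2, against 20.0% and 28.3% of all genes. The calcium-binding S100a6 (1.46 ± 0.31, adjusted p = 0.000451), Thy1 (0.93), Tpm2 (0.50), Des (0.44) and Vim (0.43) were higher, of which Thy1 (0.66) and Tpm2 (0.16) did not pass in the authors' normalized values, nor Tpm2 without Otx2/Blimp1-null PGCLC replicate 1 (0.35). Fibronectin, Fn1, read 10.13, 10.11 and 9.93 against 7.84, 8.28 and 8.43 (-1.88 ± 0.24, adjusted p = 1.18e-06). Acta2 (-0.16), Tagln (-0.25) and Col1a2 (-0.03) did not pass. The part of other cell types in the day-6 result was not tested beyond these values.

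The RNA of known targets of Blimp1 in other lineages was also looked up. Of 22 listed genes 10 were not tested, among them Myc, Ciita, Pax5, Irf4, Ifnb1 and Il2, so that their change is not known. Of 12 measured members, 4 were lower and 0 higher, with a median of -0.20, where 28.3% of all genes were lower and 20.0% higher. E2f1, which drives entry into S phase, read 10.92, 10.92 and 10.80 against 9.63, 9.34 and 9.88 (-1.27 ± 0.15, adjusted p = 6.14e-07). Bcl6, the repressor of germinal centre B cells, differed by -0.86, Tcf4 by -0.70 and Sox15 by -0.66, of which Sox15 did not pass in the authors' normalized values (-0.65), without Otx2-null PGCLC replicate 3 (-0.50) or without Otx2/Blimp1-null PGCLC replicate 2 (-0.49). Id3 (0.62), Hhex (0.37), Klf4 (0.18) and Spib (-0.15) did not pass.

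Interferon and antigen presentation genes were lower for 5 of 23 measured members and higher for 2, against 28.3% and 20.0% of all genes. The median was -0.12. The class I molecule H2-T23 read 9.13, 8.73 and 8.72 against 7.54, 7.36 and 7.43 (-1.41 ± 0.20, adjusted p = 4.11e-06), and Irf1 differed by -1.12 ± 0.18 (adjusted p = 1.67e-05). B2m, the light chain of class I molecules, moved the other way, from 7.27, 7.56 and 7.78 to 8.56, 8.68 and 8.60 (1.08 ± 0.19, adjusted p = 5.96e-05). Its groups did not overlap, and WT PGCLC stood at 8.75 ± 0.27. Isg15 (0.33), Ifit3 (0.08) and Stat2 (-0.30) did not pass.

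The DNA replication list was split evenly, with 11 of 28 members higher and 11 lower. Among the higher members, Pcna, the sliding clamp, read 8.02, 8.17 and 8.41 against 9.88, 9.66 and 9.62 (1.52 ± 0.16, adjusted p = 9.82e-08). The clamp loaders Rfc4 (1.67) and Rfc3, the GINS subunits Gins2 (1.60), Gins1 (0.89) and Gins3 (0.62), and the primase subunits Prim2 (1.16) and Prim1 (0.85) were higher. Lower members included the helicase subunit Mcm4, at 13.21, 13.26 and 13.29 against 11.89, 11.94 and 11.89 (-1.35 ± 0.14, adjusted p = 6.77e-08). Pold1 (-1.48), Lig1 (-1.27), Cdt1 (-1.18), Mcm5 (-0.85), Pole (-0.84) and Mcm2 (-0.62) fell with it. Mcm10 was called lower (-0.80) by its brightest probe and higher by another (1.38), so that its direction is not settled.

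Mitotic genes were lower for 11 of 20 members and higher for 4, with a median of -0.48. Plk1, a mitotic kinase, read 11.71, 11.07 and 11.93 against 10.32, 9.98 and 10.28 (-1.38 ± 0.20, adjusted p = 6.94e-06), and the spindle bundler Prc1 (-1.32) and checkpoint kinase Bub1b (-1.21) fell similarly. The 4 members called higher included the kinetochore gene Nuf2, the checkpoint gene Mad2l1 and Cdk1 (0.51). Cenpa (-0.07) and Birc5 (0.23) did not pass by their brightest probes, while further probes were higher (1.61 for Cenpa, 0.39 and 0.51 for Birc5). Nuf2 read 6.00, 6.25 and 6.00 against 7.81, 8.09 and 8.10 (1.91 ± 0.17, adjusted p = 1.31e-08), and Mad2l1 read 10.68, 10.56 and 10.91 against 12.29, 12.05 and 12.13 (1.44 ± 0.14, adjusted p = 4.58e-08). Of p53 targets, 6 of 16 were lower and 2 higher, against 28.3% and 20.0% of all genes. The falls were led by the stress sensor Sesn2 (-1.71), and the higher members were Ccng1 (1.17) and Sesn1 (0.47). Cdkn1a was called lower (-0.52), but its 2 further probes did not pass (0.28 and -0.36).

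Hypoxia and glycolysis genes were lower for 10 of 22 members and higher for 2, with a median of -0.32. The glucose transporter Slc2a3 read 13.70, 13.29 and 13.66 against 12.21, 12.10 and 12.32 (-1.34 ± 0.17, adjusted p = 1.28e-06). Gapdh read 13.94, 13.88 and 13.91 against 13.06, 12.95 and 13.04 (-0.90 ± 0.13, adjusted p = 5.71e-06). Pkm (-1.05), Pfkl (-1.10), Tpi1 (-0.91) and Slc2a1 (-0.89) fell, and Ldha (0.35) and Aldoa (-0.27) did not pass. Further probes did not pass for Pfkl (0.16) or Tpi1 (-0.06 and -0.37), while that of Pkm passed the same way (-0.69). Pdk1 did not pass by its brightest probe (0.22) and was lower by a further, dimmer one (-1.05, adjusted p = 0.00348). Pgk1 (0.65) and Ankrd37 (0.99) were higher, Pgk1 not without Otx2-null replicate 1 (0.41). Cholesterol synthesis genes were higher for 6 of 17 members and lower for 3, against 20.0% and 28.3% of all genes. Mvk, mevalonate kinase, read 5.32, 5.76 and 5.34 against 7.23, 7.69 and 7.25 (1.92 ± 0.16, adjusted p = 4.71e-09). Srebf2, the regulator of the pathway, was called lower (-0.94) by its brightest probe and higher by another (0.49). Dissociation stress genes were lower for 4 of 18 members and higher for 0, against 28.3% and 20.0% of all genes. Fos (-0.25) and Jun (-0.10) did not pass.

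Of 8 measured genes of the 2-cell embryo, 5 were higher and 0 lower, with a median of 0.87. Tdpoz1 read 5.75, 6.58 and 5.82 against 7.66, 8.20 and 7.44 (1.72 ± 0.26, adjusted p = 8.24e-06). Arg2, an arginase, read 5.61, 5.59 and 5.69 against 7.07, 6.77 and 7.12 (1.36 ± 0.17, adjusted p = 1.09e-06). In neither gene did the groups overlap. Tcstv1 (1.27), Tcstv3 (1.11) and Tdpoz4 (0.64) were higher, of which the last 2 did not pass without Otx2-null replicate 1 (0.71 and 0.42). Dppa2 (0.40) did not pass, nor did Zscan4c by its brightest probe (0.05), while a dim further probe of Zscan4c was higher (0.99, adjusted p = 6.68e-06). Near-identical copies of Tcstv and Tdpoz genes may share a probe. Of 19 measured imprinted genes, 5 were lower and 1 higher, against 28.3% and 20.0% of all genes. Peg3, a paternally expressed zinc finger gene, read 7.74, 8.01 and 7.46 against 5.94, 5.78 and 5.61 (-1.96 ± 0.23, adjusted p = 4.01e-07). Igf2r (-1.56) and Cd81 (-0.73) fell and Phlda2 rose (0.90), whereas Igf2 (0.07), Mest (0.01) and Gnas (0.03) did not pass by their brightest probes and a dim further probe of Gnas was lower (-0.71).

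The largest rises were found by ranking the genes past the test whose groups did not overlap. 2210409E12Rik read 7.53, 8.44 and 7.54 in Otx2-null PGCLC and 11.60, 12.10 and 11.57 in Otx2/Blimp1-null PGCLC (3.92 ± 0.22, adjusted p = 6.89e-11). Rpl39l, a ribosomal protein paralogue known from testis, read 6.63, 6.62 and 6.38 against 9.87, 9.83 and 9.78, and rose 9.74-fold. Both stood far above every Otx2-null PGCLC array. Spink1, a trypsin inhibitor, read 6.88, 7.46 and 6.83 against 10.22, 10.78 and 9.99 (3.27 ± 0.26, adjusted p = 4.00e-09). Rpl22l1, a paralogue of Rpl22, read 7.06, 7.70 and 7.29 against 10.22, 10.53 and 10.32 (3.00 ± 0.24, adjusted p = 3.17e-09), while Rpl22 itself fell (-0.91).

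Ppp1r14d (3.03), Cabp4 (2.86), the chaperone-like Serp2 (2.78), the integrin Itgae (2.73) and the mediator subunit Med31 (2.71) came next. The rest of the 15 were Cox7b (2.81), Atp5md (2.76) and Pet100 (2.68), which serve mitochondrial respiration, Gngt2 (2.65), Gm14325 (2.64) and Ifngr2. Ifngr2, a chain of the interferon gamma receptor, differed by 2.72, but its 2 further probes, which were dim, did not pass (-0.14 and -0.42). Several rises returned towards the level in EpiLC, as for Rpl39l (9.14 ± 0.10 in Otx2-null EpiLC) and Rpl22l1 (10.10 ± 0.37). Others lay above it, as for 2210409E12Rik (4.98 ± 0.44) and Spink1 (5.53 ± 0.40).

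The largest falls began with Zc3h13, a zinc finger protein of the RNA m6A methylation machinery. It read 8.93, 9.10 and 8.50 in Otx2-null PGCLC and 5.78, 4.98 and 5.55 in Otx2/Blimp1-null PGCLC (-3.40 ± 0.38, adjusted p = 1.64e-07). Fgfr2, a receptor for FGF ligands, read 9.45, 9.15 and 9.58 against 5.84, 6.41 and 6.73 (-3.07 ± 0.20, adjusted p = 3.19e-10), an 8.38-fold fall. Its RNA lay below the 7.10 ± 0.07 of Otx2-null EpiLC. Hmgn5, a nucleosome-binding protein, read 9.37, 9.01 and 9.68 against 6.50, 6.22 and 6.94 (-2.80 ± 0.27, adjusted p = 3.35e-08). Thsd4 read 7.31, 7.75 and 7.52 in Otx2-null PGCLC and was detected on no double-null array, where its signal was at least 5.60-fold lower.

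Wnt7b, Esrp1 and Rhox9, described above, belong to the same 15. The others were Eps8l2 (-2.88), the arginine sensor Castor1 (-2.52), the iron exporter Slc40a1 (-2.45), Mbp (-2.89), Ankrd11 (-2.65), Ap3b2 (-2.57), P-cadherin Cdh3 (-2.51) and the actin bundler Espn (-2.49). For the last 5 of these, at least 1 dim further probe did not pass. Of 177 further kept probes for called genes that are named or on a list, 90 were called the same way, 79 did not pass and 8 were called the opposite way. Not all of these are given beside their genes. Probes that did not pass include those of Cdh1 (-0.17), Furin (-0.29) and Tcf4 (0.16). The same holds for Ccnd1 (0.04) and Lig1 (0.04 and -0.39), where another probe passed the same way (-0.90 and -0.91).

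Several families of mitochondrial proteins and histones were mostly higher, and all families named here were chosen after the values had been seen. Of 41 genes for complex I subunits and assembly factors, 36 were higher and 3 lower, with a median of 0.86, led by Ndufb4 (2.62), Ndufaf5 (2.38) and Ndufb9 (2.21), while Ndufa10 (-0.59), Ndufa13 (-0.50) and Ndufv1 fell. Mitochondrial ribosomal proteins were higher for 53 of 73 and lower for 3 (median 0.89), with Mrpl20 (2.05) and Mrps11 (2.04) in front and Mrpl38 lower (-0.92). Of 16 ATP synthase genes, 11 were higher and 0 lower, and the catalytic core genes Atp5a1 (0.08) and Atp5b (-0.24) did not pass. Histone genes were higher for 42 of 56 and lower for 1 (median 0.97), against 20.0% and 28.3% of all genes. Near-identical histone copies may share signal. RNA was labelled from poly(A) tails, so that histone transcripts without such a tail were not measured. Pramel genes, which are also near-identical, were higher for 9 of 16 and lower for 1 (median 1.00). Genes for cytosolic ribosomal proteins and proteins named after them were higher for 21 of 58 and lower for 2, with a median of 0.12.

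A pair of families of nuclear regulators were mostly lower. Of 24 lysine demethylases and methyltransferases, 19 were lower and 1 was higher, with a median of -0.76, among them Kmt2b (-1.42), Kmt2a (-1.34) and Kdm5b (-1.32). Splicing factors of the Sf3 and Srsf groups were lower for 10 of 18 and higher for 3 (median -0.75), with Srsf5 (-1.67) and Sf3b2 (-1.65) lower and the small subunit Sf3b6 higher (1.95). The authors' normalized values gave medians of 1.01 for complex I, 0.96 for mitochondrial ribosomal proteins, 0.75 for histones and -1.13 for the lysine enzymes.

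The direction of change moved with the genomic span of the gene, from first to last annotated base. Higher genes had a median span of 12.5 kb, lower genes 31.6 kb and all tested genes 21.5 kb. The genes were split by span into 10 groups of nearly equal size. In the group with the shortest spans, 36.4% were higher and 9.62% lower. In the group with the longest spans, 8.42% were higher and 36.7% lower. The median difference went from 0.19 in the group of shortest spans to -0.30 in group 9 and -0.21 in group 10. In EpiLC the corresponding medians lay between -0.05 and 0.07.

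When the trend with span was taken out of each array, 2647 genes were higher and 2793 lower. Counts of the gene groups after that correction were 3 higher and 13 lower for early germ cell genes, 0 and 14 for epithelial genes, 3 and 11 for chromatin genes and 2 and 9 for the Nodal pathway. Complex I had 33 higher members, mitochondrial ribosomal proteins 53 and histones 33, with 11 histones lower. The lysine enzymes had 12 lower members. The cytosolic ribosomal group was then 15 higher and 14 lower (median -0.06), and 2-cell embryo genes 3 higher. Lama1 (-0.33), Col4a1 (-0.37), Tdpoz4 (0.27) and Tcstv3 (0.78) no longer passed. The files hold no measure of RNA integrity, and its part in the result was not tested.

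**Figure D4:**
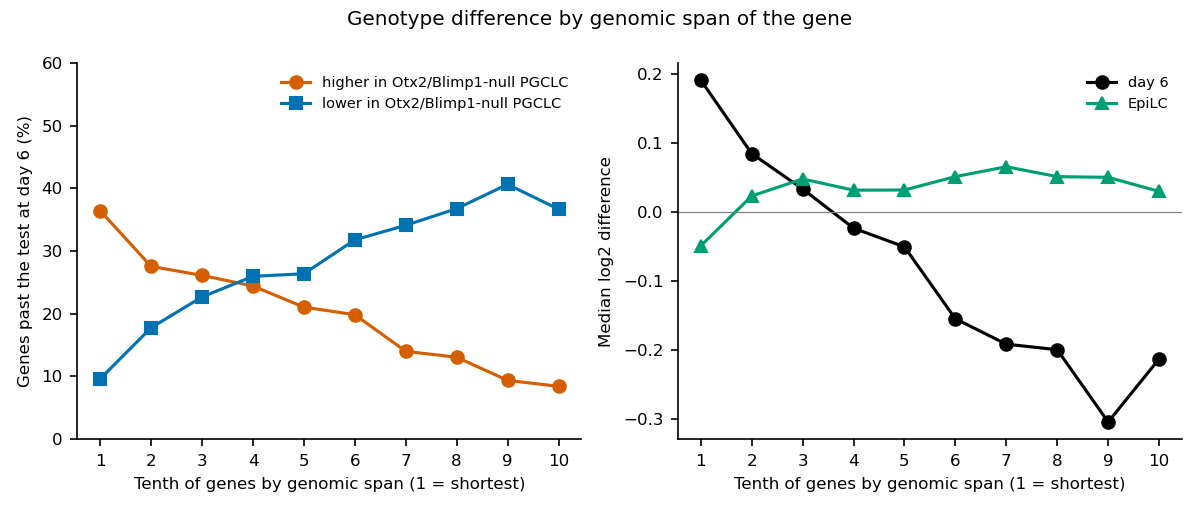
Share of genes called higher or lower in Otx2/Blimp1-null PGCLC, in percent (left), and median log2 difference at day 6 and in EpiLC (right), for 10 groups of the tested genes ordered by genomic span. From the shortest to the longest group the share of higher genes went from 36.4% to 8.42% and that of lower genes from 9.62% to 36.7%.

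The same genotype comparison in EpiLC shared no array with the day-6 comparison. There 1863 genes (16.0%) passed, 1140 (9.79%) higher and 723 (6.21%) lower in Otx2/Blimp1-null EpiLC, and at least 2-fold differences numbered 66 (0.567%) and 68 (0.584%). These counts depended on the arrays: 365 genes were higher and 238 lower without Otx2/Blimp1-null EpiLC replicate 1, and 701 and 468 without Otx2-null EpiLC replicate 3. With only the 6 EpiLC arrays in the fit, 18 genes passed in each direction.

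Of the genes called at both stages, 1148 had opposite directions and 78 the same direction. Detected probes, too, were fewer on the double-null arrays at day 6 and more numerous in EpiLC, and their part in these directions was not tested. The 425 genes higher at day 6 and lower in EpiLC were 18.2% of the higher day-6 genes and 58.8% of the lower EpiLC genes. The 723 genes lower at day 6 and higher in EpiLC were 22.0% of the lower day-6 genes and 63.4% of the higher EpiLC genes. Without Otx2/Blimp1-null EpiLC replicate 1 the counts were 323 opposite and 28 the same way. With only the groups' own arrays they were 22 and 3.

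Of the 25 early germ cell genes, 2 were higher and 0 lower in EpiLC, where 16.0% of all genes were called. Tfap2c differed by 0.11 there, Dnd1 by -0.27, Kit by 0.26 and Rhox9 by 0.09, and none of these passed. Klf5 (0.67) and Tfcp2l1 (0.45) were called higher in Otx2/Blimp1-null EpiLC and lower at day 6. The difference of differences, day 6 minus EpiLC, passed for 5686 genes (48.8%), 2340 (20.1%) above and 3346 (28.7%) below 0. It was -2.06 ± 0.23 for Tfap2c (adjusted p = 2.46e-07) and 0.82 for Nanog (adjusted p = 0.0169). For Id1, which was higher at both stages (1.48 and 0.80), it did not pass (0.68, adjusted p = 0.111). Complex I genes had a median of -0.14 in EpiLC and histones of -0.26, against 0.86 and 0.97 at day 6.

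**Figure D5:**
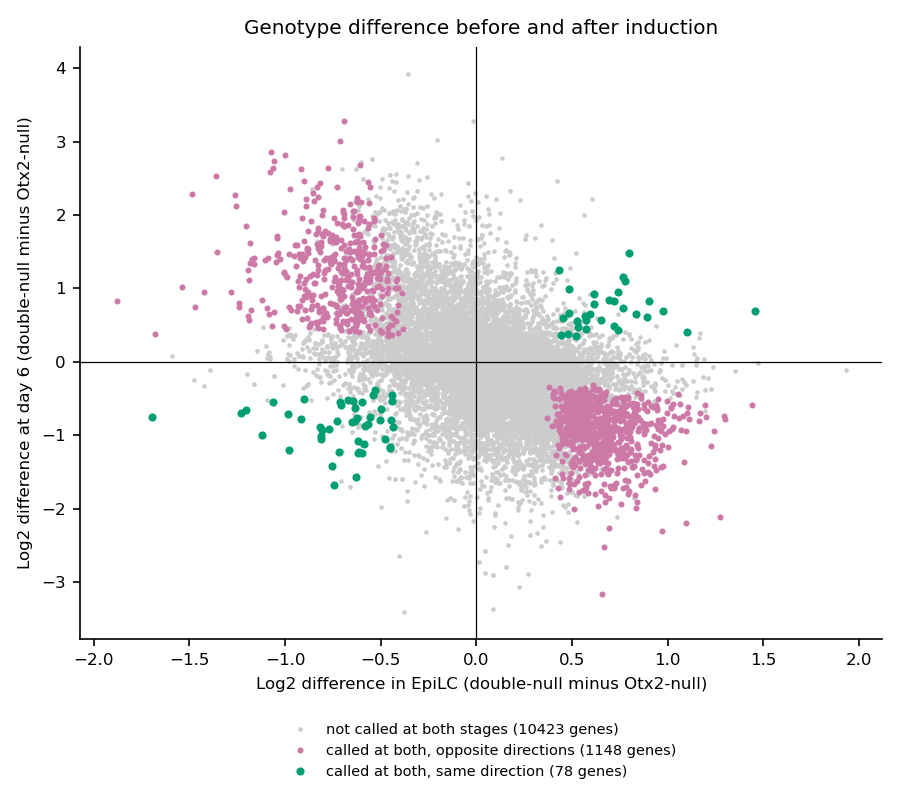
Log2 difference of Otx2/Blimp1-null minus Otx2-null cells at day 6 (vertical) against the same difference in EpiLC (horizontal) for 11649 genes. Genes called at both stages number 1148 in the quadrants of opposite direction and 78 in those of the same direction.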

How the data were processed

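Total RNA of 21 samples was labelled from poly(A) tails with oligo-dT primers, per the labels' protocols, and read on Illumina bead arrays. The deposited intensity table is named non-normalized, but its columns share nearly the same set of values, so the authors had already equalized the arrays and subtracted background. The authors also deposited normalized log2 values, made with limma per the submitters' processing notes, and, per the file headers, detection p-values by probe for every array. The intensities of replicate 2 of Otx2-null PGCLC did not follow the probe order of the others (rank correlation 0.00547 with the normalized values of that array), and each was reassigned to the probe of equal rank among those values.

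Intensities were normalized with neqc of limma 3.58.1 in R 4.3.3 (offset 16), which therefore acted on values already treated. A probe was kept where 3 or more arrays had a detection p under 0.05 (21647 of 45281), 18156 of them with 1 gene, and the brightest probe stood for each of 11649 genes. Of all probes 34885 named 1 gene, 18 several and 10378 none. One limma fit over 21 arrays, with group as the only term, gave the day-6 and EpiLC differences and the difference between them, with Benjamini-Hochberg adjustment over all genes. The fit was tested on simulated data. Alternatives were other offsets, filters, probes, variance models, array weights, array sets, the authors' values and a gene-span correction.

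Named genes were a panel, the 15 genes with the strongest rise and the 15 with the strongest fall that passed with no overlap of the groups, and for each list up to 5 members with the smallest p and up to 2 called against the list's median. Other list members were named after their values were seen. The members and lists were chosen with earlier results of these data known. Where no array of a group detected a gene, the fold is a bound: the bright group's mean against the dim group's mean of, per array, the higher of the lowest signal well above background and the probe's own.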

Additional observations from a re-analysis of the deposited data

Results flagged for a closer look

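The genotype difference at day 6 was not the same as the genotype difference in EpiLC, by a test of the difference between them in the same limma fit. Over all genes, 5686 passed that test after Benjamini-Hochberg adjustment. Values below are the log2 difference at day 6 minus that in EpiLC for genes that passed.

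Among germ cell genes the value was -0.61 for Prdm14, -2.06 for Tfap2c, -0.79 for Nanos3, -1.57 for Dppa3, -1.41 for Dnd1, -1.3 for Kit and 1.42 for Dazl. Among pluripotency genes it was 0.82 for Nanog, -1.17 for Sox2, 0.5 for Pou5f1, -1.49 for Esrrb, -1.31 for Klf2, -1.97 for Tfcp2l1 and 0.93 for Zfp42. Nanog, Pou5f1 and Zfp42 passed this test although their day-6 difference alone did not. For epiblast and chromatin genes it was 0.64 for Otx2, -1.59 for Fgf5, -1.55 for Pou3f1, -1.93 for Dnmt3b and -1.69 for Uhrf1.

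Among the largest rises at day 6 it was 4.28 for 2210409E12Rik, 3.98 for Rpl39l, 3.29 for Spink1, 3.23 for Ppp1r14d, 3.72 for Rpl22l1, 3.94 for Cabp4, 3.81 for Cox7b and 2.65 for Serp2. It was 3.31 for Atp5md, 3.79 for Itgae, 3.32 for Ifngr2, 3.02 for Med31, 3.29 for Pet100, 3.42 for Gngt2 and 3.7 for Gm14325. Among the largest falls at day 6 it was -3.03 for Zc3h13, -3.45 for Wnt7b, -3.82 for Esrp1, -3.29 for Fgfr2, -2.99 for Rhox9, -3.16 for Mbp, -2.92 for Eps8l2 and -2.95 for Hmgn5. It was -2.74 for Thsd4, -2.25 for Ankrd11, -2.62 for Ap3b2, -3.19 for Castor1, -2.85 for Cdh3, -2.66 for Espn and -2.89 for Slc40a1. These 30 genes were chosen by their day-6 difference, which is part of the value. The number of genes called in EpiLC changed with single EpiLC arrays, as given in the next section.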

How the results depend on the processing

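At day 6 the counts of higher and lower genes stayed within 1.5 times of 2332 and 3291 under every alternative run, for example 1925 and 2567 with the authors' normalized values and 2647 and 2793 after the gene-span correction, which was chosen after seeing the data. Leaving out 1 array at a time gave 2103 to 2272 higher and 2905 to 3020 lower genes, and 2121 to 2366 and 3015 to 3335 for the difference between stages. The EpiLC counts were less stable. They were 18 higher and 18 lower with the groups' own arrays alone and 650 and 424 with array weights. Without 1 array they ranged from 365 to 1122 higher and from 238 to 731 lower, and without Otx2-null EpiLC replicate 3 they were 701 and 468. The genes called in opposite directions at the 2 stages then numbered 22 with the groups' own arrays, 659 with array weights, 323 without Otx2/Blimp1-null EpiLC replicate 1 and 613 without Otx2-null EpiLC replicate 3. The cause was not tested.

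Replicate numbers did not pair the arrays: same-numbered arrays of the 2 genotypes had correlations of deviations from -0.13 to 0.13 at day 6 and from -0.08 to 0.20 in EpiLC. With the replicate block, 2361 genes were higher and 3329 lower at day 6, 1191 and 740 in EpiLC, and 2368 and 3355 for the difference between stages. Of 208 genes checked, 30 lost their call with the authors' normalized values and 13 after the gene-span correction, and no gene reversed. The files name no slide, so slide as a block was not run. With 3 arrays in each group and a single line for each genotype, the number of arrays limits the precision. Probes near background understate differences.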

Other observations

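Day-6 medians by chromosome lay between -0.14 on chromosome 19 (416 genes) and 0.04 on chromosome X (403 genes), so that no chromosome stood far from the median of all genes. Proteasome subunits and their assembly chaperones were higher for 12 of 35 and lower for 3 at day 6 (median 0.25), among them Psmb10 (1.94), Psmb5 (1.87) and Psma6 (1.68), while Psmd4 was lower (-0.74). Of 13 cytochrome c oxidase genes, 7 were higher and 0 lower (median 0.40). Of 90 olfactory receptor genes, 3 were higher and 0 lower, with a median of 0.04, and after the gene-span correction 3 were higher and 23 lower. These families were chosen after the values had been seen.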
